A study of Mus musculus with 7 samples.

Results

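The first 12 h of NeuroD1 induction in mouse embryonic stem (ES) cells were followed by ChIP-seq of H3K27ac, and the genes next to the early gains and losses of this mark are described here. The libraries of 2 time points were compared, 0 h and 12 h, each with 2 replicates, R1 and R2. These 4 libraries were chosen by the time point in their sample labels, from 7 samples in all, of which 6 were H3K27ac libraries and 1 was an Input. All samples came from A2Lox cells, a single ES line that carries the mouse NeuroD1 coding sequence, with an HA tag, behind a promoter switched on by doxycycline. The 0 h cells received no doxycycline and the 12 h cells received 500 ng/ml. The cells had been taken off their fibroblast feeders and grown on gelatin with LIF. The labels do not say that R1 and R2 were separate cultures, so the p-values below measure only the spread between these libraries, which may be technical.

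NeuroD1 belongs to the transcription factors with a basic helix-loop-helix (bHLH) domain, can bind its sites in closed chromatin, and drives neuronal differentiation. It binds E-boxes, short sites of the form CANNTG, as a dimer with an E protein, and Id proteins block such dimers. H3K27ac, an acetylation of histone H3, marks active promoters and enhancers, and its gain at a silent site is an early sign that the site is in use.

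Each of the 66841 merged peaks was tested for a difference between 12 h and 0 h with the quasi-likelihood F-test of edgeR and Benjamini-Hochberg adjustment, in a model of all 6 H3K27ac libraries. Peaks with an adjusted p under 0.05 were called gained or lost. The following stretches of 200 bp come from such peaks and were picked after their values were seen, to show the sites that the counts of motifs below refer to. Each is the stretch with the most marked sites among those scanned outside exons near the peak's centre. They do not show how common the sites are. Gained peaks named below at Neurog1, St18 and Insm1 had neither CAGATG nor CAGCTG in the 500 bp around the centre. They are read from the forward strand of mm10 (GRCm38). In the first 5, from gained peaks, capitals mark CAGATG, written as CATCTG where it lies on the other strand, and CAGCTG. In the last, from a lost peak, capitals mark GGGCGG, the core of a GC box.
Nrcam, intron, chr12:44535640-44535839: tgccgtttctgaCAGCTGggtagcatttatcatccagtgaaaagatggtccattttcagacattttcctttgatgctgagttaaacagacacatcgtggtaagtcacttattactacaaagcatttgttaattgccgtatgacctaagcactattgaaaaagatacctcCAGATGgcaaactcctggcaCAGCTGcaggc
Lef1, intergenic, chr3:131034968-131035167: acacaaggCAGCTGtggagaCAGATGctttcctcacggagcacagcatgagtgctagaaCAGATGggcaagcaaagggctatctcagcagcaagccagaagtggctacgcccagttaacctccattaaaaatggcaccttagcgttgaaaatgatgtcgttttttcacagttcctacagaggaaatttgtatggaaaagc
Emx2, intergenic, chr19:59411895-59412094: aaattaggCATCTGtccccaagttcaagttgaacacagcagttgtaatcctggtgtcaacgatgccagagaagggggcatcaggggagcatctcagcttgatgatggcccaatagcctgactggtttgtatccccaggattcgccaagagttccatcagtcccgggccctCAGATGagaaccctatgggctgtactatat
Dusp5, intergenic, chr19:53500774-53500973: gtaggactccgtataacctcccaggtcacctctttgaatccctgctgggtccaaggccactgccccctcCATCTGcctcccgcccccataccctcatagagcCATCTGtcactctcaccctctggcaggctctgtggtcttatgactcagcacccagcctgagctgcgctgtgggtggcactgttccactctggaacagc
Dll3, promoter, chr7:28302274-28302473: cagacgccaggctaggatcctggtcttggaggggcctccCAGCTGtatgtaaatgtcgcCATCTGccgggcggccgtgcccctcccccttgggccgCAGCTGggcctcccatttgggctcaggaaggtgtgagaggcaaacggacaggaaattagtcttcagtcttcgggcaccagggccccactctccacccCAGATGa
Celsr3, promoter, chr9:108826107-108826306: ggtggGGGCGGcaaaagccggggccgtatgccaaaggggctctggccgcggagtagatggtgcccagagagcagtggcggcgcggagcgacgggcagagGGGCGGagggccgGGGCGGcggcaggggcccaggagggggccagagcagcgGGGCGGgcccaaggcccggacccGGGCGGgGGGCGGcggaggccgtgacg

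The 4 libraries held between 6506169 and 7583497 reads in merged peaks. R1 and R2 differed by more than read sampling, with a chi-square statistic per degree of freedom of 1.83 at 0 h and 1.43 at 12 h. The cells carried the mark of ES cells at both time points. The promoter peaks of Pou5f1, Nanog, Sox2, Esrrb and Zfp42, which define this state, held between 1577 and 4645 scaled counts per library, and none of the 5 was called (adjusted p from 0.058 to 0.86). Scaled counts are reads brought to the mean library total. Of the 6 feeder markers examined, Col1a2, Col3a1, Thy1 and Twist2 had no promoter peak, and the promoter peaks of Col1a1 and Pdgfrb held at most 17.0 scaled counts. The promoters of neuronal markers were not gained. The strongest promoter peak of Tubb3, a neuronal tubulin, held 107 and 109 scaled counts at 0 h and 103 and 108 at 12 h, and that of Elavl3, a neuronal RNA-binding protein, fell from 25.7 and 32.9 to 8.58 and 8.28 (adjusted p = 0.016).

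By 12 h, H3K27ac was gained at 6638 peaks (9.93% of those tested) and lost at 4028 (6.03%), together 16.0%. Gained peaks started low, at a median of 25.0 scaled counts, and rose to 70.0, a median log2 fold change of 1.41. Lost peaks were strong at 0 h, with a median of 178 scaled counts, and fell to 99.8, a median log2 fold change of -0.83. The numbers rested on both replicates. Without 0 h R1 there were 3065 gains and 771 losses, without 0 h R2 1459 and 100, without 12 h R1 3082 and 414, and without 12 h R2 2458 and 138, where the lone library of a time point is assumed to vary like the other groups. Without 48 h R1 there were 10832 gains and 10544 losses, and without 48 h R2 10731 and 10593. The 48 h pair, which shares the model's estimate of spread, differed most (chi-square per degree of freedom 5.63). Gains made up 62.2% of the changed peaks, 74.2% with TMM factors, 76.7% with DESeq2 and 50.5% when only the 4 libraries were modelled.

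A caution applies to every count of this comparison, since the 12 h libraries differed from the 0 h libraries in GC content. The log2 scaled counts fell by 0.22 (R1) and 0.28 (R2) per 10 percentage points of GC in the 12 h libraries, relative to each peak's mean, and rose by 0.15 and 0.26 in the 0 h libraries. From the lowest to the highest GC quintile of peaks, the share that gained H3K27ac went from 25.8% to 0.397%, and the share that lost it went from 0.322% to 15.7%. Across peaks, which are not independent replicates, GC content and log2 fold change had a Pearson's r of -0.49. The 48 h libraries had slopes of opposite sign, 0.24 (R1) and -0.15 (R2), so a pair of the same time point could differ about as much as 0 h and 12 h did. Whether the 12 h trend arose in the cells or in the libraries was not tested. When each library's own GC trend was removed with an offset in the model, r was -0.17. With this offset 13.6% of peaks were called, 8.71% as gains and 4.88% as losses. Called in the same direction with and without the offset were 4959 gains (7.42%) and 1866 losses (2.79%), and the gained and lost peaks of single genes below are of this kind.

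**Figure D1:**
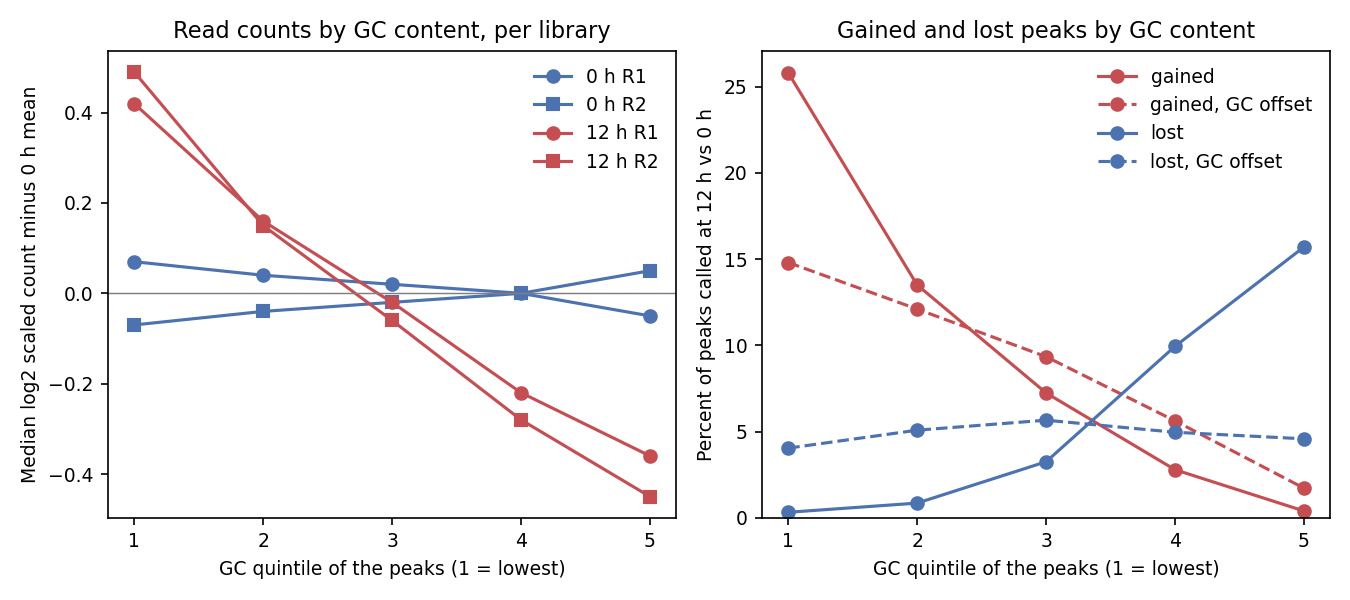
The left panel plots, for each 0 h and 12 h library, the median over peaks of the log2 scaled count (pseudocount 8) minus the mean of the 0 h libraries, by quintile of GC content. The right panel plots the percent of peaks gained and lost in each quintile. Both 12 h libraries fell along the same line, from 0.42 and 0.49 in the lowest quintile to -0.36 and -0.45 in the highest, and the GC offset (dashed) brought the lost share to between 4.04% and 5.66% in all 5 quintiles, while the gained share with the offset still fell from 14.8% to 1.72%.

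Gains lay mostly outside promoters and losses mostly at promoters. Of the gained peaks 5.94% were at promoters, 34.2% in introns and 57.9% between genes, and of the lost peaks 69.3% were at promoters. A peak that came within 2 kb of the transcription start site (TSS) of any protein-coding gene counts here as a promoter peak. At the 16416 promoter peaks, 2.40% were gains and 17.0% losses, while the 50425 peaks elsewhere had 12.4% gains and 2.45% losses. With the GC offset the shares were 3.23% and 10.5% at promoters and 10.5% and 3.04% elsewhere. Losses outnumbered gains at promoters, and gains outnumbered losses elsewhere, both with and without the offset. Without the offset, the lost share of promoter peaks went from 0.667% in the lowest GC quintile to 26.2% in the highest. With the offset it was 8.58%, 13.1%, 14.8%, 10.5% and 7.68% from the lowest to the highest. Intergenic peaks gained most often (15.3%, and 12.4% with the offset), followed by intronic peaks (10.1% and 8.95%). Peaks in coding exons lost H3K27ac more often than they gained it (7.02% against 2.90%), and the order was the other way with the offset (2.96% against 4.41%).

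The share of gains rose with the distance from a TSS. Outside promoters, 6.87% of peaks within 10 kb of a TSS were gained, 10.9% of those at 10 to 50 kb, 15.9% at 50 to 100 kb and 20.2% at 100 to 200 kb. Beyond 200 kb the share stayed near this level, at 20.3% up to 500 kb and 19.9% further out. With the GC offset it peaked at 16.5% between 100 and 200 kb and was 12.2% beyond 500 kb. The median GC content of these classes lay between 48.3% and 49.6%. A gained peak was typically 42418 bp from the nearest TSS, 1045 bp wide and 44.1% in GC. A lost peak was typically 377 bp from a TSS, 1525 bp wide and 58.1% in GC.

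**Figure D2:**
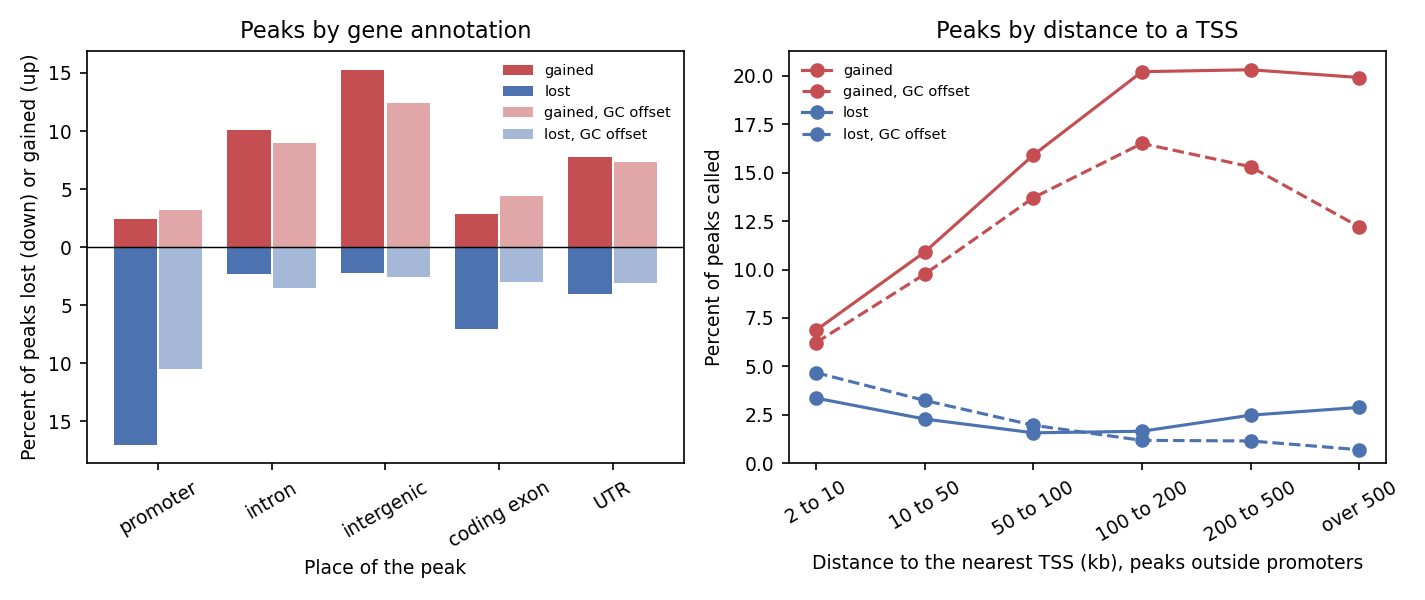
The left panel shows the percent of peaks gained (bars up from 0) and lost (bars down from 0) by place in the gene annotation, without (dark) and with (light) the GC offset. The right panel shows the same percents for peaks outside promoters by distance to the nearest TSS in kb (dashed lines, with the offset). Promoters had the highest lost share, 17.0% and 10.5% with the offset, and gains were most frequent between 100 and 200 kb (20.2%, 16.5% with the offset) and between 200 and 500 kb (20.3%, 15.3% with it).

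Each peak was given the protein-coding gene with the nearest TSS, which need not be the gene it regulates. Of the 15849 genes nearest to at least 1 peak, 2406 had a gained peak, 1677 a lost peak and 150 both. At 183 genes there were 5 or more gained peaks, which was not compared with the number expected from how many peaks each gene has. The gene with the most gained peaks was Chd7, a chromatin remodeller needed in neural crest and neural stem cells, with 19 of 35. Plcb1, a phospholipase that acts downstream of G protein-coupled receptors, had 18 of 21. Map4k3, a kinase, had 17 of 29 and Magi1, a scaffold of cell junctions, 15 of 39. Insm1, a zinc finger factor of early neurons and endocrine cells, had 14 of 27. Map1b, a microtubule protein of growing axons, had 12 of 23. Jrkl had 12 of 16 and C1galt1 11 of 16, the latter level with 5 other genes. None of these 8 genes had a lost peak. At 27 genes there were 3 or more lost peaks. This number cannot be set against that of the gains. Fewer peaks were lost (1866 against 4959), and 65.6% of them were at promoters, against 6.33% of the gains. Prr12 had 5 lost peaks of 7. Ank3, which anchors channels at the axon initial segment, had 4 of 15 beside 1 gain.

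The 3 gains below were at sites with almost no reads at 0 h, and are among the 8 with the largest change. An intergenic peak 316253 bp from Jrkl (chromosome 9, 12928898 to 12930255) had 2 and 1 reads at 0 h and 84 and 95 at 12 h, with R1 before R2 here and throughout. It had 7 and 40 reads at 48 h. An intronic peak of Tm9sf3 had 0 and 2 reads at 0 h and 44 and 37 at 12 h. A peak in an intron, nearest to B3galnt1, had 2 and 3 reads and then 40 and 39. Against a level of 3 reads per library at 0 h, the 12 h means were 28.3-fold, 13.0-fold and 12.6-fold higher. These folds are not confidence bounds, as counting error was not included. With the GC offset the log2 fold changes were 5.12, 4.50 and 3.57. The other 5 of the 8 largest gains, nearest to Sorcs3, Gm17555, Nox3, Psat1 and Znhit6, had log2 fold changes from 3.83 to 4.10 and lay between 86681 and 601951 bp from the TSS. Not all of them started near 0. That near Znhit6 had 30 and 17 reads at 0 h and 292 and 419 at 12 h, and that near Psat1 had 11 and 10 and then 146 and 189. In all 8 peaks the groups did not overlap, as the choice of these peaks required. When any of the 4 libraries was left out, the log2 fold change of each was at least 3.47.

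At promoters, the gains with the largest change included several neural genes. At Prmt8, an arginine methyltransferase found mainly in brain, 8 and 10 reads became 109 and 106 (log2 fold change 3.49, standard error 0.34, adjusted p = 2.4e-07). At Ebf2, a factor of newly born neurons, 3 and 5 reads became 42 and 37 (log2 fold change 3.20). At Scn3a, a neuronal sodium channel, 1 and 7 reads became 37 and 42 (log2 fold change 3.19). Others were Rec114, which acts in meiotic recombination (2.76), Itgbl1 (2.76) and the predicted genes Gm17026 (3.42) and Gm8165 (2.98). The 12 h libraries were above both 0 h libraries at each of these promoters, as the choice of these peaks required. When any of the 4 libraries was left out, the log2 fold change of each was at least 2.38.

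**Figure D3:**
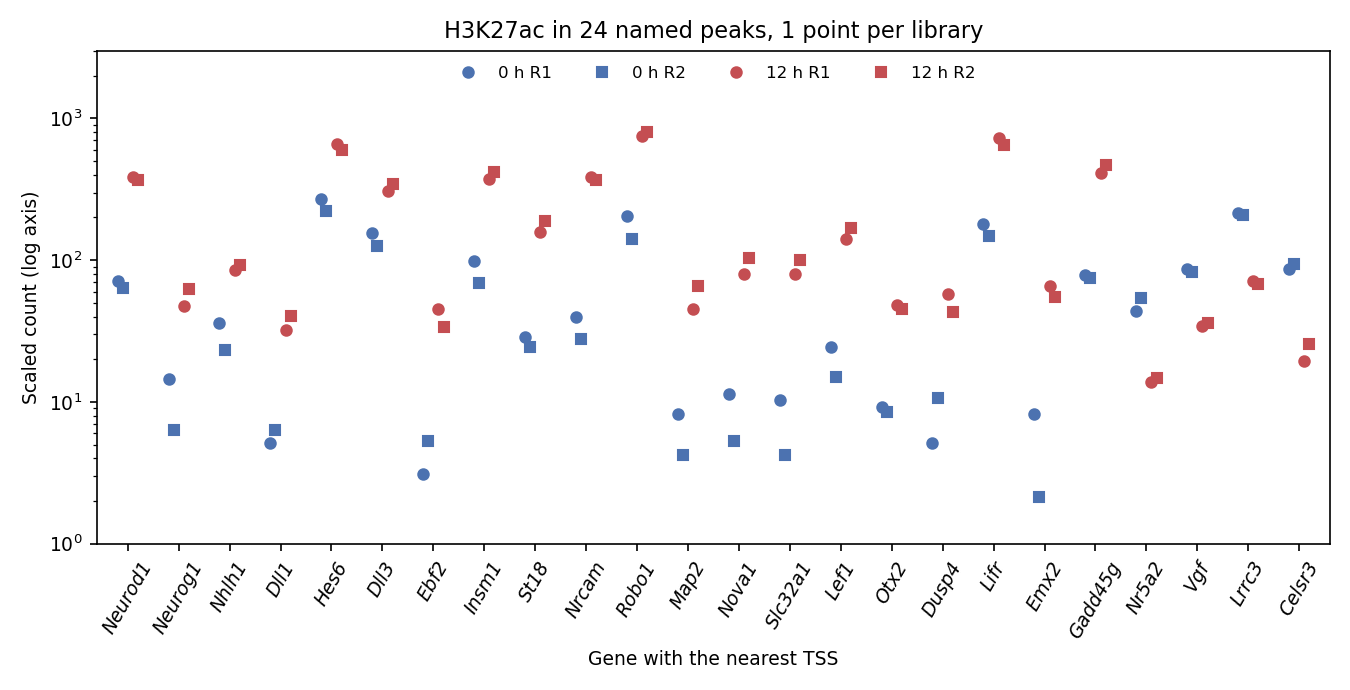
Scaled counts (log axis) of 24 peaks named in the text, labelled by the gene with the nearest TSS, with 1 point for each 0 h and 12 h library. The 12 h libraries lay above the 0 h libraries at the first 20 genes, from Neurod1 to Gadd45g, and below them at Nr5a2, Vgf, Lrrc3 and Celsr3. For Ebf2, Lrrc3 and Celsr3 the lack of overlap was a condition of their choice. The other peaks were picked from called peaks by the size of their change, which made it likely beforehand. The share of all peaks without overlap was not counted.

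The endogenous Neurod1 locus was among the gains. The peak just upstream of the gene (chromosome 2, 79456988 to 79460121), which does not overlap the coding sequence carried by the transgene, had 70 and 60 reads at 0 h and 359 and 398 at 12 h. This is a 5.53-fold rise (log2 fold change 2.47, standard error 0.22, adjusted p = 8.5e-08). A second peak (79454052 to 79456929) rose from 103 and 85 reads to 232 and 220 (log2 fold change 1.20, adjusted p = 4.0e-04), but 986 bp of it are coding sequence, where reads of the transgene and of the gene cannot be told apart. Another, 37875 bp away, rose from 16 and 7 reads to 47 and 62 (log2 fold change 2.16, adjusted p = 7.0e-04). Without 0 h R2 the calls of the latter pair were lost (adjusted p = 0.052 and 0.080). The 12 h libraries lay above both 0 h libraries at all 3 peaks, as is likely for peaks called as gained.

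For the gene lists that follow, the shares over all peaks with a gene were 9.94% gained and 6.02% lost (8.71% and 4.86% with the GC offset), and 7.14% gained among peaks within 50 kb of the TSS. The shares of promoter peaks lost were 17.0% and 10.5%. A list near these shares is like the rest, and no list was tested against them. Among proneural and neuronal bHLH factors, the family of NeuroD1 itself, 18 of 58 peaks were gained and 2 lost (20 and 0 with the GC offset). Their median log2 fold change was 0.89, against -0.08 for all peaks. Gained peaks belonged to 7 of the 13 genes with a peak. At Neurog1, a proneural factor of sensory neurons, an intergenic peak rose from 14 and 6 reads to 44 and 68 (log2 fold change 2.39, adjusted p = 1.3e-04). At Olig3, a factor of the dorsal neural tube, 4 of 11 peaks were gained, the largest from 13 and 8 reads to 47 and 64 (2.31, adjusted p = 2.9e-04). Neurod4 had 2 gained peaks of 7, Nhlh1 had 2 of 8 and Nhlh2 had 1 of 4. The strongest of Nhlh1 rose from 35 and 22 reads to 80 and 100 (1.58, adjusted p = 0.0012), a call lost without 0 h R2 (adjusted p = 0.099). Atoh1 and Neurod2 had peaks but no gain. In the list of E proteins and Id inhibitors, the partners and blockers of these factors, 15 of 87 peaks were gained and 1 lost (16 and 1 with the offset), with a median of 0.23. All 4 Id genes had a gained peak. Id4 had 6 of 25, the largest from 16 and 4 reads to 57 and 46 (2.29, adjusted p = 6.7e-04, and 0.077 without 0 h R2). A peak of Id2 rose from 298 and 224 reads to 563 and 669 (1.16, adjusted p = 4.5e-05).

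Notch genes, which let a differentiating cell hold back its neighbours, were near the gained share of all peaks only without the GC offset. Of 189 peaks, 23 were gained (12.2%, against 9.94% of all peaks) and 7 lost (3.70%, against 6.02%). With the offset 33 were gained (17.5%, against 8.71%) and 3 lost (1.59%, against 4.86%). The median log2 fold change was -0.06 (-0.08 over all peaks), and 0.12 with the offset (-0.03 over all peaks). Single members had gains. Dll1, a ligand, had 5 gained peaks of 12. One of them, 2599 bp from the TSS, rose from 5 and 6 reads to 30 and 44 (2.64, adjusted p = 2.4e-04). The promoter peak of Mfng, which modifies Notch receptors with sugars, rose from 49 and 32 reads to 134 and 150 (1.74, adjusted p = 5.4e-05). At Hes6, a Hes family member that promotes neurogenesis, both peaks were gained, the one at the promoter from 262 and 211 reads to 616 and 648 (1.35, adjusted p = 2.2e-05). At Dll3, a ligand-like inhibitor, the promoter peak shown above rose from 151 and 118 reads to 287 and 374 (1.22, adjusted p = 1.1e-04). Hes1, the classical target, had 3 gained peaks of 22. Hes5 and the receptors Notch1, Notch2, Notch3 and Notch4 had none.

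Transcription factors of neuronal differentiation gained H3K27ac at 67 of 335 peaks and lost it at 4 (69 and 3 with the GC offset), with a median log2 fold change of 0.48. The gains were concentrated in few genes. Insm1 had 14, St18 had 9 of 14, and Ebf2, Sox11 and Zfhx3 had 5 each. The peak near St18, a myelin transcription factor family member, rose from 28 and 23 reads to 147 and 205 (2.70, adjusted p = 2.4e-06) and had 16 and 53 at 48 h. An intronic peak near Insm1 rose from 96 and 65 reads to 348 and 452 (2.23, adjusted p = 2.1e-07). A distant peak near Zeb2, which acts in neuronal and neural crest differentiation, rose from 7 and 3 reads to 34 and 38 (2.75, adjusted p = 0.0011, and 0.090 without 0 h R2). Onecut2 had 3 gained peaks of 8, and Onecut1 and Pou3f2 had 2 each. Isl1, Tbr1, Prox1 and Pou4f1, which are active in later neurons, had peaks but no gain.

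Genes of neuronal migration had 49 gained and 3 lost peaks of 249 (44 and 5 with the GC offset), with a median log2 fold change of 0.45. Tspan5, a tetraspanin, had 9 gained peaks of 24, and Cdh13, a cadherin, had 6 of 7. The largest gain at Cdh13, 111845 bp from its TSS, was from 34 and 24 reads to 151 and 210 (2.55, adjusted p = 1.9e-06). A peak given to Nrp2, a semaphorin receptor, rose from 29 and 46 reads to 195 and 210 (2.35, adjusted p = 5.3e-06), but lay 522226 bp from its TSS. A peak near Wdfy3, an autophagy adaptor, rose from 24 and 12 reads to 76 and 74 at 12 h (1.98) and to 274 and 299 at 48 h.

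Axon guidance genes had 42 gained and 10 lost peaks of 274 (35 and 4 with the GC offset), with a median of 0.04. The gained share was 15.3% (12.8% with the offset), but within 50 kb of the TSS it was 7.69% (9 of 117 peaks), close to the 7.14% of all peaks, and the largest gains lay further away. The largest gain was the intronic peak shown above, 206707 bp from the TSS of Nrcam, an adhesion molecule of axons, with 39 and 26 reads at 0 h and 363 and 401 at 12 h (3.48, adjusted p = 6.5e-09). The group means were an order of magnitude apart. Nrcam had 5 gained peaks of 10 in all, and Robo1, the Slit receptor, had 8 of 31. The largest at Robo1 rose from 200 and 133 reads to 699 and 867 (2.16, adjusted p = 2.1e-07), far from the TSS (776476 bp). A peak 224443 bp from Sema6d, a transmembrane semaphorin, rose from 25 and 12 reads to 119 and 146 (2.76). Robo2, Slit1, Slit2, Slit3 and Dcc had no gain, and Ephb2 had 2 lost peaks.

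In neuronal cytoskeleton genes, 28 of 166 peaks were gained and 12 lost (26 and 13 with the GC offset), with a median of -0.06. Of their 43 promoter peaks, 2 were gained and 5 lost, and 2 and 4 with the offset, beside 17.0% and 10.5% of all promoter peaks lost. Map2, a dendritic microtubule protein, gained most in an intron, from 8 and 4 reads to 42 and 72 (3.14, adjusted p = 8.9e-06) and then 102 and 153 at 48 h. A peak near Map1b rose from 2 and 6 reads to 40 and 37 (3.16), and Crmp1, a semaphorin signalling protein, gained in 4 of 6 peaks, the largest from 16 and 12 reads to 65 and 80 (2.29). In synaptic genes, 42 of 219 peaks were gained and 18 lost (32 and 12 with the offset), with a median of 0.21, and at their 40 promoter peaks there were 2 gains and 10 losses, with 6 losses with the offset, against 17.0% and 10.5% of all promoter peaks lost. The largest gain was 18554 bp from Slc32a1, the vesicular GABA transporter, whose 3 peaks were all gained, here from 10 and 4 reads to 74 and 110 (3.61, adjusted p = 5.9e-07). A peak 248995 bp from the TSS of Gria1, a glutamate receptor subunit, rose from 19 and 10 reads to 145 and 145 (3.24). Rims1 and Dlg2 had 4 gained peaks each. Vamp2 and Unc13a, of the vesicle release machinery, had 2 lost peaks each, and Snap25, Stx1a, Syn1, Dlg4 and Shank1 had 1 each.

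Genes of neuronal RNA binding and splicing had 38 gained and 6 lost peaks of 219 (31 and 4 with the GC offset), with a median of 0.31. A peak 344250 bp from Nova1, a neuronal splicing factor, rose from 11 and 5 reads to 74 and 112 (3.44, adjusted p = 7.9e-07). An intronic peak 127006 bp from the TSS of Celf2, a splicing regulator, rose from 44 and 30 reads to 157 and 179 (2.11). Elavl2 had 7 gained peaks of 39. Among dense-core vesicle and granin genes, 10 of 62 peaks were gained and 5 lost (8 and 3 with the offset). The promoter peak of Vgf, a secreted neuronal peptide precursor, fell from 85 and 78 reads to 32 and 39 (log2 fold change -1.27, adjusted p = 0.0031). Its call was lost without 0 h R2, 12 h R1 or 12 h R2 (adjusted p = 0.058, 0.064 and 0.068).

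**Figure D4:**
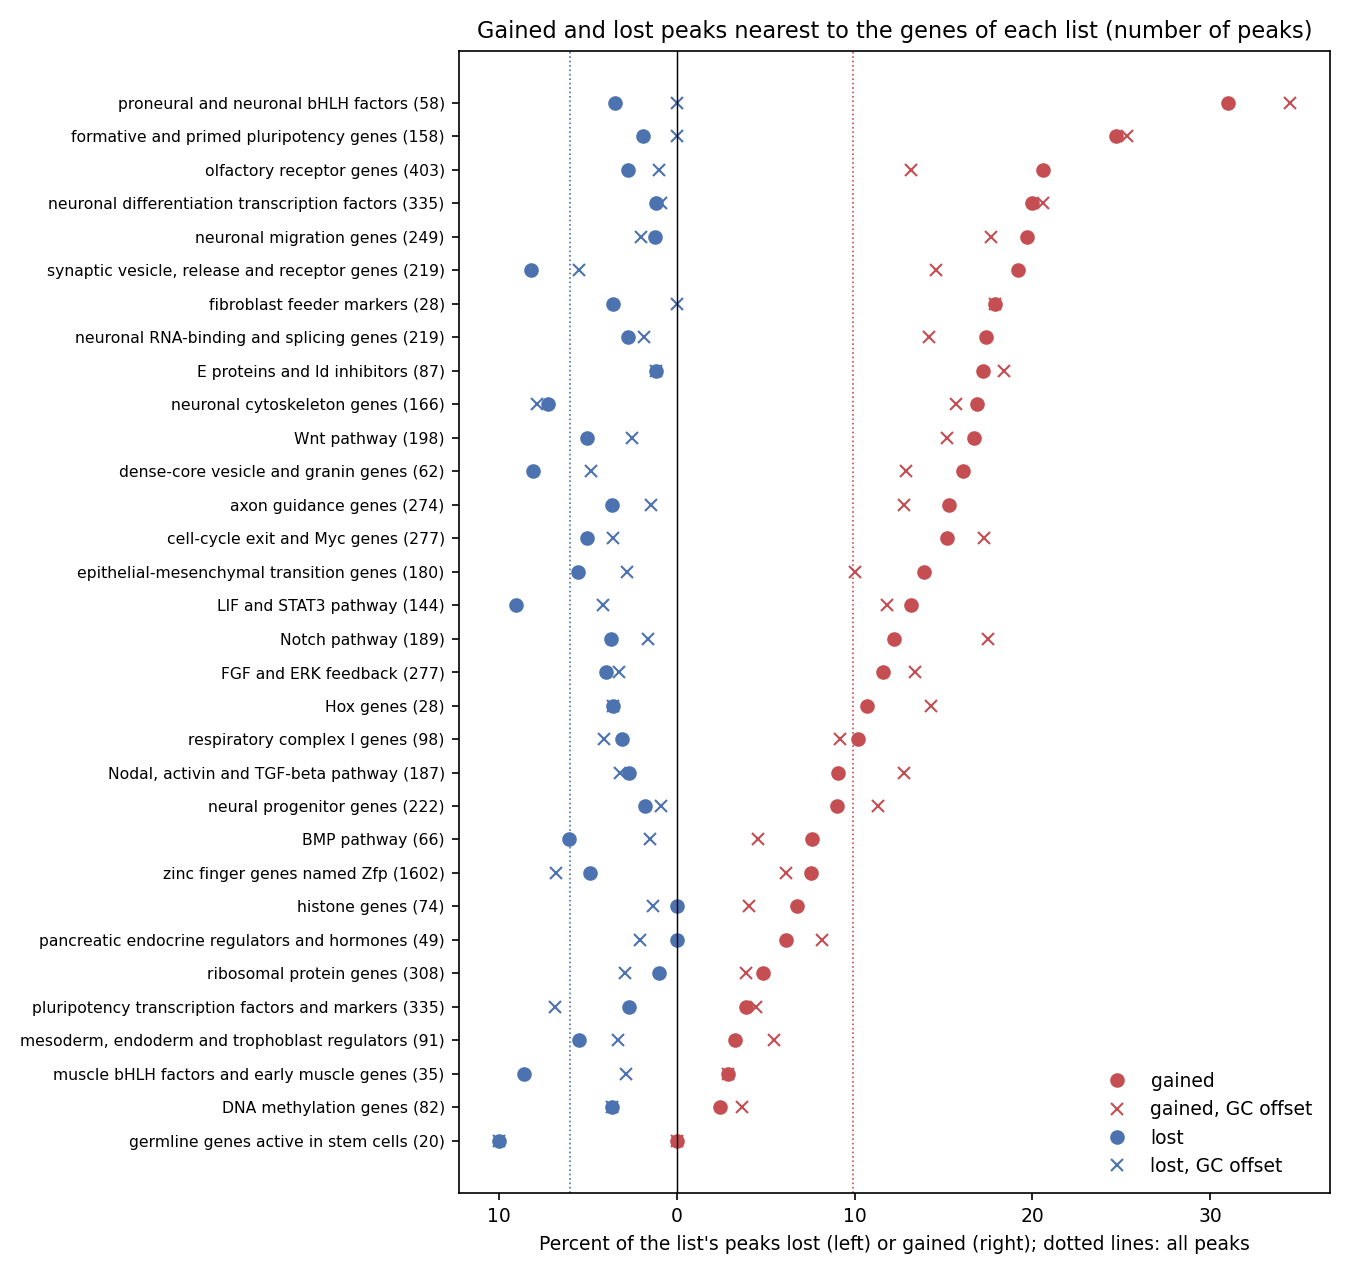
For each of 32 gene lists, the percent of the peaks nearest to its genes that were gained (right of 0) and lost (left of 0), without (dots) and with (crosses) the GC offset, with the number of peaks in parentheses and dotted lines at the shares of all peaks. Proneural bHLH factors stood at 31.0% gained (34.5% with the offset) and genes of formative pluripotency at 24.7% (25.3%), while olfactory receptor genes went from 20.6% to 13.2% with the offset.

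Genes of formative and primed pluripotency, the state through which ES cells leave the naive ground state, gained H3K27ac at 39 of 158 peaks and lost it at 3 (40 and 0 with the GC offset). Their median log2 fold change was 0.54, the second highest of the 32 lists after the proneural factors, as it was with the offset (0.49 against 0.71). Otx2, a factor of this state and of the forebrain, had 10 gained peaks of 19. Among these, 9 and 8 reads became 45 and 49 (2.38, adjusted p = 2.0e-04) at a peak 49690 bp from its TSS. The intergenic peak near Lef1 shown above, a Wnt effector, rose from 24 and 14 reads to 131 and 184 (2.96, adjusted p = 1.9e-07), and had 196 and 272 at 48 h. The promoter peak of Dnmt3a, a DNA methyltransferase, rose from 909 and 902 reads to 1511 and 1603 (0.71, adjusted p = 0.0013), a call lost without 0 h R1, 0 h R2 or 12 h R1 (adjusted p = 0.051, 0.068 and 0.075). In the DNA methylation list as a whole, 2 of 82 peaks were gained and 3 lost. Fgf5, Sox3, Pou3f1 and Zic2 had no gained peak.

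Naive pluripotency genes moved little at 12 h. Of 335 peaks of pluripotency factors and markers, 13 were gained and 9 lost, with a median of -0.03. With the GC offset 15 were gained and 23 lost, and the median was -0.13, against -0.03 for all peaks with the offset. Nr5a2 and Klf5, both activators of the naive network, had 2 lost peaks each. A peak 363304 bp from Nr5a2 fell from 43 and 51 reads to 13 and 16 (-1.77, adjusted p = 0.0031, with 0.097 without 0 h R2 and 0.056 without 12 h R2). Nr0b1, Tbx3 and Dppa2 had 1 lost peak each. Nanog, Zfp42, Tfcp2l1, Prdm14 and Pou5f1 had no peak called in both fits, and with the offset alone Nanog had 3 lost peaks of 13 and Prdm14 had 3 of 18. Esrrb, Dppa3 and Tdh had 1 gained peak each, with log2 fold changes of 1.19 at Esrrb and 1.37 at the Dppa3 promoter. These calls at Esrrb and Dppa3 were lost when any of the 4 libraries was left out. Klf4 had 3 gained peaks of 15, and Sox2 had 2 of 41, both away from its promoter. The larger at Sox2 rose from 8 and 6 reads to 27 and 41 (2.18, adjusted p = 0.0017, with 0.077 without 0 h R2 and 0.056 without 12 h R2).

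Among signalling genes, those of FGF signalling and ERK feedback had 32 gained (11.6%, against 9.94% of all peaks) and 11 lost peaks of 277 (37 and 9 with the GC offset), with a median of 0.20. Near Dusp4, a phosphatase that ERK induces, 5 and 10 reads became 54 and 47 (2.66, adjusted p = 7.4e-05). Near Dusp5, of the same family, 28 and 29 reads became 94 and 94 (1.65, adjusted p = 3.0e-04), at the peak shown above. Fgfr2 had 5 gained peaks of 10, whereas Fgfr1 had 2 lost peaks. The largest gain at Fgfr2 lay 278941 bp from its TSS and was from 12 and 14 reads to 68 and 81 (2.43). Wnt pathway genes had 33 gained and 10 lost peaks of 198 (30 and 5 with the offset), with a median of 0.15. The transcription factor gene Sp8 had 7 gained peaks of 14. The largest of these, 186677 bp from its TSS, rose from 90 and 48 reads to 347 and 407 (2.38, adjusted p = 3.5e-07). The promoter peak of Wnt5a, a ligand, rose from 18 and 14 reads to 54 and 53 (1.66, adjusted p = 0.0013, and 0.075 without 0 h R2).

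LIF and STAT3 pathway genes, which maintain the naive state, had 19 gained and 13 lost peaks of 144 (17 and 6 with the GC offset), with a median of -0.08. Within 50 kb of the TSS 8.26% of their peaks were gained. Of their 25 promoter peaks, 0 were gained and 10 lost, and 2 and 3 with the offset, against lost shares of 17.0% and 10.5% over all promoter peaks. Lifr, the LIF receptor, had 6 gained peaks of 21, and 1 in an intron rose from 176 and 140 reads to 673 and 704 (2.05, adjusted p = 7.5e-07). Nodal, activin and TGF-beta genes had 17 gained and 5 lost peaks of 187 (24 and 6 with the offset), with a median of 0.09. BMP genes had 5 gained and 4 lost of 66 (3 and 1).

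Genes of cell-cycle exit and the Myc family had 42 gained and 14 lost peaks of 277 (48 and 10 with the GC offset), with a median of 0.17. The gained share was 15.2%, and 8.09% within 50 kb of the TSS. Gadd45g, a growth arrest gene of newly committed neurons, had 10 gained peaks of 11. The strongest of these rose from 77 and 71 reads to 387 and 510 (2.52, adjusted p = 2.3e-08), and held 133 and 196 at 48 h. Gadd45a had 8 gained peaks of 19 and Mycn 7 of 48. A peak 94331 bp from Ccnd1, which encodes cyclin D1, rose from 81 and 72 reads to 351 and 466 (2.33, adjusted p = 1.9e-07) and held 124 and 241 at 48 h. The cyclin-dependent kinase inhibitor gene Cdkn1a had 12 peaks and none of this kind. At all of these named peaks the 12 h libraries lay above both 0 h libraries, which the choice of called peaks with large changes made likely.

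Lists of other lineages stood on both sides of the 9.94% gained over all peaks. Regulators of mesoderm, endoderm and trophoblast had 3 gained (3.30%) and 5 lost peaks of 91 (5 and 3 with the GC offset), with a median of -0.15. Pancreatic endocrine regulators, which NeuroD1 serves in the islets, had 3 gained (6.12%) and 0 lost of 49 (4 and 1). Within 50 kb of the TSS, 0 of their 30 peaks were gained. A peak 238824 bp from the TSS of Nkx6-1, which also patterns the neural tube, rose from 10 and 7 reads to 40 and 48 (2.28, adjusted p = 2.2e-04). Muscle genes had 1 gained and 3 lost peaks of 35 (1 and 1). Neural progenitor genes had 20 gained (9.01%) and 4 lost of 222 (25 and 2), and the intergenic peak near Emx2 shown above, a forebrain patterning gene, rose from 8 and 2 reads to 61 and 60 (3.50, adjusted p = 7.7e-06). Genes of the epithelial-mesenchymal transition had 25 gained (13.9%, and 6.19% within 50 kb) and 10 lost of 180 (18 and 5). Fibroblast feeder markers had 5 gained (17.9%) and 1 lost of 28 (5 and 0), Hox genes 3 (10.7%) and 1 of 28 (4 and 1) and germline genes 0 and 2 of 20 (0 and 2).

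Housekeeping genes and large gene families were counted in the same way. At ribosomal protein genes, 15 of 308 peaks were gained and 3 lost (12 and 9 with the GC offset), and of their 90 promoter peaks 0 were called without the offset and 3 were lost with it. Respiratory complex I genes had 10 gained and 3 lost of 98 (9 and 4), and histone genes 5 and 0 of 74 (3 and 1). Genes named Zfp had 121 gained and 78 lost of 1602 (98 and 109), of which 57 of the losses (58 with the offset) were among their 473 promoter peaks. Peaks nearest to olfactory receptor genes, which act in sensory neurons of the nose, had 83 gains and 11 losses of 403, and 53 and 4 with the offset. Their median log2 fold change was 0.50 without and 0.26 with it, and their median GC content was 45.5%.

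Of the 8 losses with the largest change, 1 was at a promoter, and the others lay between 3729 and 73233 bp from a TSS. The promoter peak of Celsr3 shown above, an adhesion receptor of developing axons (chromosome 9, 108825941 to 108826674, 68.3% GC), fell from 84 and 89 reads to 18 and 28, with 132 and 82 at 48 h. Its log2 fold change was -1.99 (standard error 0.34, adjusted p = 2.7e-04) and -1.56 with the GC offset. At Matn2, an extracellular matrix protein, 46 and 39 reads became 12 and 14 (-1.77, adjusted p = 0.0016). At Lrrc3, 210 and 197 reads became 67 and 74 (-1.60, adjusted p = 6.2e-05), at Arhgap23 120 and 111 became 41 and 39 (-1.60) and at B4galt2 117 and 96 became 32 and 44 (-1.56). In a coding exon of Prr12, 59 and 60 reads became 15 and 18 (-1.92, adjusted p = 0.0012). These 6 stayed called when any of the 4 libraries was left out. Zfp513, Sirt2 and Gch1, the latter the first enzyme of tetrahydrobiopterin synthesis, fell by 1.76, 1.74 and 1.60 on the log2 scale at their promoters. Zfp513 lost its call without 12 h R1 (adjusted p = 0.054), and Sirt2 and Gch1 lost theirs without 0 h R2 (0.14 and 0.071) and without 12 h R2 (0.080 and 0.11). Away from promoters, the largest fall was 73233 bp from Pdia4, from 44 and 31 reads to 3 and 13 (-2.30, adjusted p = 0.0030, with 0.070 without 0 h R1 and 0.082 without 12 h R1). The others of the 8, nearest to Trp73, Pnldc1, Ndufa11, Gfi1b and Crlf2, fell by 1.95, 1.94, 1.87, 1.85 and 1.84 on the log2 scale, and each lost its call in at least 1 omission of a library (highest adjusted p from 0.052 to 0.20). Their GC content lay between 54.8% and 69.9%.

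E-boxes and other motifs were counted on both strands in the 500 bp around the centre of peaks outside promoters. The E-box forms differ in their middle bases, so no site counts for more than 1 of them. CAGATG, the form shown in the gained peaks above, was in 37.5% of gained peaks, 31.2% of peaks not called and 22.1% of lost peaks, against 31.8% of all peaks outside promoters. With the GC offset the shares were 40.2% of gained and 27.2% of lost peaks. Within each of the 5 GC quintiles of these peaks, the share was higher in gained peaks than in peaks not called. It was 33.9% against 30.2% in the lowest and 38.6% against 24.7% in the highest, which held only 70 gained peaks. Gains made up 11.3% of the peaks that lacked CAGATG, 14.0% of those holding 1 site, 16.6% of those holding 2 and 18.9% of those holding at least 3. The corresponding shares with the GC offset were 9.21%, 12.4%, 16.3% and 19.7%.

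For CAGCTG the order turned with the GC offset. It was in 23.8% of gained, 25.3% of uncalled and 31.8% of lost peaks (25.3% of all), and in 27.1% of gained and 21.2% of lost peaks called with the offset. Gains with the offset made up 10.2%, 11.1%, 11.8% and 13.2% of peaks with 0, 1, 2 and at least 3 CAGCTG sites, whereas without it they made up 12.6%, 11.8%, 11.3% and 10.8%. Within GC quintiles the gained peaks held it more often, at 16.9% against 14.9% of uncalled peaks in the lowest and 44.3% against 28.7% in the highest. All shares of gained peaks in the highest quintile, here and below, rest on 70 peaks. Of other E-boxes, CATATG was in 10.6% of gained and 6.88% of uncalled peaks (7.28% of all), CACCTG in 31.7% and 38.6% (37.8%) and CACGTG in 5.58% and 7.68% (7.39%). Within GC quintiles, CATATG was in 11.5% of gained and 11.4% of uncalled peaks in the lowest and 8.57% and 1.84% in the highest. CACCTG was in 25.8% and 26.1% in the lowest, 45.1% and 41.4% in quintile 4 and 47.1% and 53.3% in the highest. ATGCAAAT, the octamer of POU factors, was in 3.99% of gained, 1.63% of lost and 2.50% of all peaks. AAGGTCA, a nuclear receptor site, was in 11.9%, 6.03% and 9.74%, and TGACTCA, the AP-1 site, was in 10.8%, 4.97% and 9.66%. With the GC offset TGACTCA was in 9.48% of gained and 8.11% of lost peaks. GGGCGG was in 51.9% of lost and 7.16% of gained peaks (18.9% of all), and in 25.0% and 9.32% of those called with the GC offset. In the highest GC quintile alone it was in 67.6% of lost, 34.3% of gained and 46.4% of all peaks. Gained peaks were wider than uncalled ones (median 1045 against 604 bp, promoters included), so the window covers less of them, and a match of these letters describes the sequence only. NeuroD1 binding was not measured in these libraries.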

How the data were processed

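H3K27ac ChIP-seq was measured in A2Lox cells at 0, 12 and 48 h of induction, with 2 libraries each. Per the submitters' processing notes FastQC, Bowtie2, SAMtools (0.1.19) and MACS2 were used on mm10. The other versions are not given in the sources used here. The authors merged the peaks and counted reads in them with QuasR, and the deposited values are raw read counts of 66841 peaks. The Input has no column in the counts and was not used here. Library totals were 6506169 to 7583497 reads at 0 h and 12 h, with a median of 30.5 counts per peak, which limits weak peaks. Intervals and bounds cover counting error only.

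The 6 libraries were fitted by time point with edgeR (4.0.16, R 4.3.3), scaled to the total in peaks, with glmQLFTest for 12 h against 0 h and Benjamini-Hochberg adjustment over all peaks (threshold 0.05). The residual degrees of freedom were 3. In the GC offset, a lowess curve (span 0.3) of each library's log2 counts on GC content was removed; 58 peaks without a GC value had none. Peaks were placed on the GRCm38 annotation, with 21840 protein-coding genes. Sequences are from the RefSeq GRCm38.p6 genome. Tables were made with Python 3.11.15 and pandas 2.3.3. Alternatives were TMM factors, DESeq2 (1.42.0), a filter of 10 counts in 2 libraries, the 4 libraries alone, a 1.5-fold minimum change, a replicate block and leaving out each library. On simulated counts of all 66841 peaks for this comparison, 36 of 100 peaks changed 2-fold and 92 of 100 changed 4-fold were recovered with 9 false calls. With a GC trend added to the simulation there were 807 false calls without the offset and 5 with it. The simulation gave all libraries the same spread and only the 12 h libraries a trend, the same in both. The real libraries differed in spread and in trend, so these numbers do not show how well the offset works on them.

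Named were the 8 largest gains and losses over all peaks and over promoter peaks (mean of at least 20 counts, called with and without the GC offset), the 8 genes with the most gained or lost peaks, and up to 4 members of each gene list. Further members are named by their counts of called peaks, chosen after those were seen. Some items that this rule picks are not reported here. Members and lists were chosen with earlier results of these data known.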

Additional observations from a re-analysis of the deposited data

How the results depend on the processing

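Counts of peaks moved with the model of spread and the scaling. Modelling the 4 libraries alone gave 10804 gains and 10599 losses, and 6251 losses with the GC offset. TMM factors gave 2637 losses, DESeq2 gave 4059 gains and 1234 losses, and a test against a 1.5-fold minimum change gave 2476 gains and 133 losses. Leaving out 1 library gave between 1459 and 10832 gains and between 100 and 10593 losses, with the fewest without 0 h R2 and the most without a 48 h library. With the GC offset, 3.23% of promoter peaks were gained and 10.5% lost, and 10.5% and 3.04% of other peaks. With promoters set at 500 bp from a TSS, 1.65% of promoter peaks were gained and 20.1% lost, and 12.0% of other peaks were gained. The cause was not tested. With the GC offset, losses no longer outnumbered gains in coding exons (2.96% against 4.41%), they outnumbered gains at pluripotency genes (23 against 15) and at genes named Zfp (109 against 98), and CAGCTG was more frequent in gained than in lost peaks (27.1% against 21.2%). The 132 named peaks kept their sign in every alternative. A call with the GC offset was a condition of their choice, and the 4 libraries alone kept every call of the main fit. Each named peak kept its call with the count filter and the replicate block. With DESeq2 122 did, with TMM factors 131 and with the 1.5-fold minimum 103. Part of them lost the call when 1 of the 4 libraries was left out, most often without 0 h R2. Of 64 counts of gained and lost peaks in gene lists, 41 stayed within 1.5-fold of the main count with the GC offset. When only peaks within 50 kb of the TSS were counted, 40 did.

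The labels' R1 and R2 share only a number across time points. The differences R1 minus R2 of 2 time points had correlations across peaks of -0.04, -0.09 and 0.11. A replicate block gave 6900 gains and 4023 losses, and 6119 and 3565 with the GC offset.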
